A study of Rattus norvegicus with 18 samples.

Results

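The genes of the insulin-like growth factor (IGF) family were followed across all 6 groups of a perinatal exposure study in the rat. The family was defined by gene symbol and comprised 10 genes: the ligand Igf2, the receptors Igf1r and Igf2r, and the binding proteins Igfbp1 to Igfbp7. These genes were read by 11 of the 22523 probes on the array, with 2 probes for Igfbp4 and 1 for each other gene, among 13337 annotated genes in all. Dams received 2,2',4,4'-tetrabromodiphenyl ether (BDE-47), a brominated flame retardant, or its vehicle by caudal injection, and 1 female Wistar pup from each of 3 litters was profiled per group. Frontal lobes came from pups of postnatal day 41 whose dams had 6 injections of vehicle, 0.002 or 0.2 mg/kg BDE-47, given from late gestation until weaning. Total brains came from pups of postnatal day 10 whose dams had 3 injections of the same vehicle or doses. The vehicle of ethanol, Cremophor EL and water was thus common to all groups, and region, age and number of injections changed together between the tissues. The series' own design text gives day 10 for both tissues, and the ages used here are those on the samples. BDE-47 was given to the dams, so the dose that reached a pup is not known from these data. Igf2 and Igfbp2 were picked out because of their frontal lobe dose differences, so all frontal lobe dose differences of the family are given as a description, and nothing is read from how many passed the fit over all probes.

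The IGF ligands are small secreted proteins related to insulin that promote growth and survival of many cell types, including neurons and glia. They signal through the tyrosine kinase receptor encoded by Igf1r, whereas the mannose 6-phosphate receptor encoded by Igf2r takes up IGF2 for breakdown in the lysosome. The binding proteins hold the ligands outside the cell and set how much is free to reach a receptor. In the rodent brain, Igf2 is expressed mainly by the leptomeninges, the choroid plexus and vessels, and Igfbp2 by the same coverings and by astrocytes, while Igf2 is an imprinted gene in most tissues.

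Because Igf2 and Igfbp2 were the members that differed with dose in the frontal lobe, their promoters are shown first, as the 250 bases before each annotated start site (RefSeq, rat build GRCr8, 5′ to 3′ on the strand of the gene). Igf2 lies on the minus strand of chromosome 1 with 2 annotated starts, at chr1:207250476-207250725 and chr1:207253981-207254230 for the windows shown, and Igfbp2 on the plus strand of chromosome 9, at chr9:81864561-81864810. Capitals mark the GC box, the letters GGGCGG on either strand.
Igf2, first window: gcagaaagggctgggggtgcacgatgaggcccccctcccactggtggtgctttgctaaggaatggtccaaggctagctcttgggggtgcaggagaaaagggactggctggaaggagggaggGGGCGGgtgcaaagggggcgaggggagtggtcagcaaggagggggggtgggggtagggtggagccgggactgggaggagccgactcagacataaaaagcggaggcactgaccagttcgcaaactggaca
Igf2, second window: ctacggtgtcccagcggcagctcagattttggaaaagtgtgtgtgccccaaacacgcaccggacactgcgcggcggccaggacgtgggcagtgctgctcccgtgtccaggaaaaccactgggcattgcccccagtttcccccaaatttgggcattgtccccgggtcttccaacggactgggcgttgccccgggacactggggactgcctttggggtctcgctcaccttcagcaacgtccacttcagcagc
Igfbp2: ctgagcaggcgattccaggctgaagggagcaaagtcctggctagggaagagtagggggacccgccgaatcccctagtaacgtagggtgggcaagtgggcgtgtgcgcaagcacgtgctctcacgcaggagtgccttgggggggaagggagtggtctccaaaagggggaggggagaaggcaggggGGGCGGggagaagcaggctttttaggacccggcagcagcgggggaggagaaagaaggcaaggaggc
One GC box began at position -129 from the start site in the first Igf2 window and at -66 in the Igfbp2 window, and the second Igf2 window held none. Promoter windows were found for all 10 genes, 11 windows in all, of which 5 held a GC box, against 30.5% of 33469 rat promoters. The letters TATAAA were present in 1 family window, that of Igfbp4, against 12.9% of all promoters. The nuclear receptor half-site AGGTCA was in 0 of the 11 windows, against 14.1% of all promoters. The 3 windows printed were 63.6%, 62.4% and 64.0% G or C in the order shown, above the median of 51.2% over all promoters. In the RefSeq gene order Igfbp2 is the direct neighbour of Igfbp5 on chromosome 9, Igfbp1 is that of Igfbp3 on chromosome 14, and Igf2 lies between H19 and Ins2 on chromosome 1.

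The deposited values were on a log2-like scale from 7.45 to 15.69 in frontal lobe and from 7.59 to 15.75 in total brain. If they are log2 signal, a difference of 1 corresponds to a doubling, and the fold values given here rest on that reading. Of all probes, 58.5% in frontal lobe and 56.6% in total brain had a mean under 8, close to the floor of this scale. Of the family, 4 of the 11 probes lay there in both tissues, those of Igfbp1 and Igfbp5 and both of Igfbp4, and 7 lay above it. Arrays of a tissue correlated at 0.981 to 0.997 in frontal lobe and at 0.984 to 0.998 in total brain over all probes. The tissues had different array medians, 7.83 to 7.84 in frontal lobe and 7.88 to 7.89 in total brain, and appear to have been normalized separately, so levels of the tissues are set side by side here without a test. Probes also differ in how brightly they hybridize, so no gene's level is compared with another gene's. In the frontal lobe, replicate 2 of the 0.2 mg/kg group and replicate 3 of the vehicle group were also left out together, a choice made after the data were seen. Replicate 2 at 0.2 mg/kg was the highest frontal lobe array on the meninges and the microglia lists and the lowest on the neuron list described below. Vehicle replicate 3 was the lowest on the meninges list, although the 0.002 mg/kg arrays lay close to it.

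Igf2, the ligand of the family, had its highest frontal lobe values at 0.2 mg/kg. Its 3 frontal lobe values were 13.17, 12.78 and 12.63 with vehicle, 12.72, 12.88 and 12.44 at 0.002 mg/kg, and 13.69, 13.81 and 13.36 at 0.2 mg/kg. Every array at 0.2 mg/kg thus lay above every vehicle and 0.002 mg/kg array, while the vehicle and 0.002 mg/kg groups overlapped. The group means were 12.86 ± 0.28 with vehicle, 12.68 ± 0.22 at 0.002 mg/kg and 13.62 ± 0.24 at 0.2 mg/kg (SD, n = 3 each). The 0.2 mg/kg group differed from vehicle by 0.76 with a standard error of 0.18, a 1.69-fold higher signal, and from 0.002 mg/kg by 0.94 with the same standard error, 1.92-fold. The 0.002 mg/kg group differed from vehicle by -0.18 with a standard error of 0.18, and that difference lay between -0.29 without vehicle replicate 3 and -0.02 without vehicle replicate 1.

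Igfbp2, which encodes a binding protein with high affinity for IGF2, showed the widest separation of the frontal lobe groups in the family. Its values were 11.25, 11.05 and 11.13 with vehicle, 10.86, 10.70 and 10.58 at 0.002 mg/kg, and 11.99, 12.31 and 11.78 at 0.2 mg/kg. No frontal lobe group overlapped another: the 0.002 mg/kg arrays were lowest, the vehicle arrays lay between, and the 0.2 mg/kg arrays were highest. The means were 11.15 ± 0.10, 10.71 ± 0.14 and 12.03 ± 0.27 in the same order (SD, n = 3 each). The 0.2 mg/kg group differed from vehicle by 0.88 with a standard error of 0.13, a 1.84-fold higher signal, and from 0.002 mg/kg by 1.31, 2.49-fold. The 0.002 mg/kg group differed from vehicle by -0.43 with a standard error of 0.13. A gap of 0.19 lay between the highest 0.002 mg/kg array and the lowest vehicle array. Relative to vehicle, the group mean was lower at 0.002 mg/kg and higher at 0.2 mg/kg. That order describes arrays on which the gene was chosen, and 0 of all probes passed at 0.002 mg/kg against vehicle. No dose response is read from it.

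**Figure D1:**
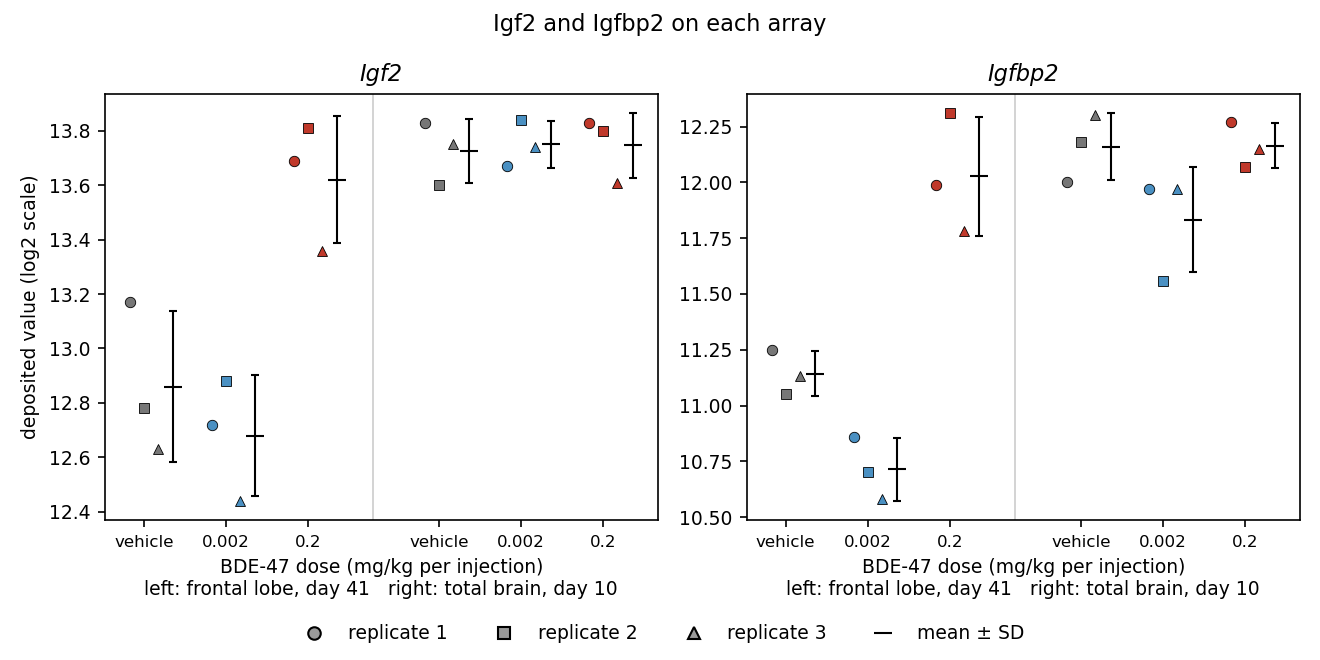
Deposited values of Igf2 and Igfbp2 on each array (vertical axis, log2 scale, not starting at 0) by dose, with frontal lobe on the left and total brain on the right of each panel; points are single pups, with the mean ± SD beside them. The frontal lobe 0.2 mg/kg arrays lie above the other frontal lobe arrays for both genes, and at about the height of the total brain arrays.

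Of the 11 family probes, 1 passed an adjusted p of 0.05 over all probes in frontal lobe at 0.2 mg/kg against vehicle, that of Igfbp2, where 1.14% of all probes passed, and Igf2 did not pass. At 0.2 against 0.002 mg/kg both passed, where 2.87% of all probes passed. At 0.002 mg/kg against vehicle 0 family probes passed, as did 0% of all probes. Non-overlapping groups were seen for 2 family probes at 0.2 mg/kg against vehicle, with 17.6% of all probes, for 2 at 0.2 against 0.002 mg/kg, with 26.2%, and for 1 at 0.002 mg/kg against vehicle, with 12.8%. Because the genes were chosen on these contrasts, nothing is read from those counts. The median difference over the 11 probes was -0.09 at 0.002 mg/kg against vehicle, 0.01 at 0.2 mg/kg against vehicle and 0.02 at 0.2 against 0.002 mg/kg. Of the 11 probes, 9 had a difference below 0 at 0.002 mg/kg against vehicle, 4 at 0.2 mg/kg against vehicle and 3 at 0.2 against 0.002 mg/kg.

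The receptors showed no such separation in frontal lobe. Igf2r had values of 10.86, 10.75 and 10.42 with vehicle, 10.45, 10.41 and 10.55 at 0.002 mg/kg, and 10.47, 10.55 and 10.30 at 0.2 mg/kg. Of the vehicle arrays, 2 were the highest and the third lay among the exposed arrays, so all groups overlapped. The 0.2 mg/kg group differed from vehicle by -0.23 with a standard error of 0.11. Without replicate 2 of the 0.2 mg/kg group and replicate 3 of the vehicle group this difference was -0.42, a shift of over 1.5 times. Igf1r had values of 8.77, 8.66 and 8.35 with vehicle, 8.63, 8.64 and 8.67 at 0.002 mg/kg, and 8.58, 8.77 and 8.57 at 0.2 mg/kg. Its dose differences ranged from -0.01 to 0.06, below the SD of 0.22 among the vehicle arrays.

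Among the other binding proteins, Igfbp6, which encodes a protein that prefers IGF2 over IGF1, had the widest spread within the frontal lobe groups of these 3 genes. Its frontal lobe values were 9.33, 9.10 and 9.88 with vehicle, 9.61, 9.02 and 9.16 at 0.002 mg/kg, and 9.45, 10.18 and 9.49 at 0.2 mg/kg. The highest vehicle array was replicate 3 and the highest 0.2 mg/kg array was replicate 2, and the groups overlapped. The difference of 0.27 between 0.2 mg/kg and vehicle had a standard error of 0.27, and was 0.04 without replicate 2 of the 0.2 mg/kg group and 0.49 without replicate 3 of the vehicle group. Igfbp7, which encodes a low-affinity binding protein abundant in vessels, had values of 13.03, 13.40 and 12.78 with vehicle, 12.79, 12.82 and 12.92 at 0.002 mg/kg, and 12.63, 13.04 and 12.82 at 0.2 mg/kg. The groups overlapped, and 0.2 mg/kg differed from vehicle by -0.24 with a standard error of 0.16. Without replicate 2 of the vehicle group that difference was -0.07, and without replicate 2 of the 0.2 mg/kg group and replicate 3 of the vehicle group it was -0.48. Igfbp3, whose product carries most circulating IGF in a complex with the acid-labile subunit, had frontal lobe values of 8.16 to 8.40 with differences of -0.09 to 0.01.

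**Figure D2:**
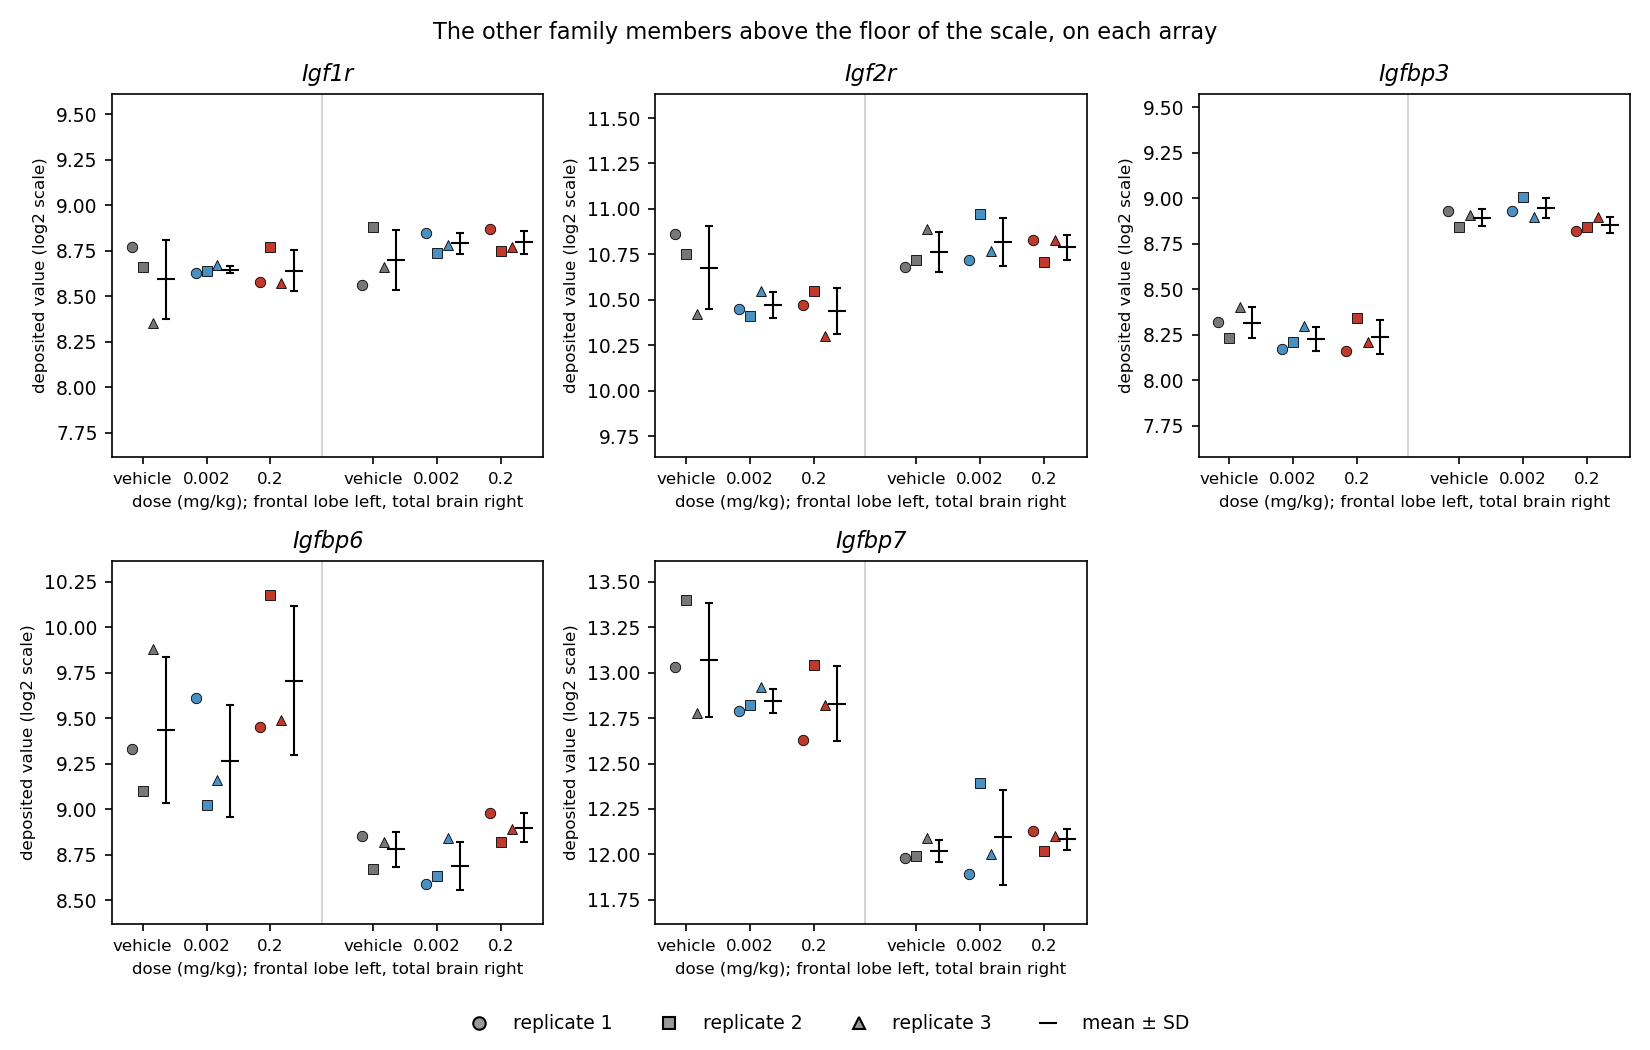
Deposited values (vertical axis, log2 scale, each panel spanning the same height and not starting at 0) of the 5 other family genes above the floor, by dose, with frontal lobe left and total brain right; points are single pups, with the mean ± SD beside them. In every panel the 3 dose groups of a tissue overlap, and Igfbp3, Igfbp6 and Igfbp7 differ between the tissues.

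The 4 probes near the floor gave no dose pattern that could be resolved. Igfbp1, whose product is made mainly by liver, lay between 7.80 and 7.92 in frontal lobe and between 7.89 and 7.99 in total brain. Igfbp5 lay between 7.66 and 7.76 in frontal lobe and between 7.76 and 7.95 in total brain. The first Igfbp4 probe lay between 7.57 and 7.68 in frontal lobe and between 7.70 and 7.74 in total brain, and the second between 7.80 and 7.97 and between 7.83 and 7.92. Their dose differences stayed within -0.06 and 0.04 in both tissues. At such values a low transcript level and a dim probe cannot be told apart.

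In total brain at day 10, which played no part in the choice of the genes, Igf2 showed no difference between the doses that passed the test. Its values were 13.83, 13.60 and 13.75 with vehicle, 13.67, 13.84 and 13.74 at 0.002 mg/kg, and 13.83, 13.80 and 13.61 at 0.2 mg/kg. All 3 groups overlapped, with means of 13.73 ± 0.12, 13.75 ± 0.09 and 13.75 ± 0.12 (SD, n = 3 each). The 0.2 mg/kg group differed from vehicle by 0.02, with a 95% interval from -0.17 to 0.20 and an adjusted p of 1.00 in limma. The same difference was 0.76 with a standard error of 0.18 in frontal lobe. Igf2 was chosen on that frontal lobe value, so it is not weighed against the total brain interval. Region, age and number of injections also differ, and the difference between the tissues was not tested.

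Igfbp2 in total brain was lowest at 0.002 mg/kg. Its values were 12.00, 12.18 and 12.30 with vehicle, 11.97, 11.56 and 11.97 at 0.002 mg/kg, and 12.27, 12.07 and 12.15 at 0.2 mg/kg. The 0.002 mg/kg arrays lay below all others, by as little as 0.03 from the lowest vehicle array, and the vehicle and 0.2 mg/kg groups overlapped. The 0.002 mg/kg group differed from vehicle by -0.33 (95% interval -0.62 to -0.04), which gave an unadjusted p of 0.0317 and an adjusted p of 0.733 in limma and so did not pass. The 0.2 mg/kg group differed from vehicle by 0.01 (95% interval -0.28 to 0.30, adjusted p of 1.00 in limma), and from 0.002 mg/kg by 0.33 (unadjusted p of 0.0291, adjusted p of 0.780 in limma). Replicate 2 of the 0.002 mg/kg group carried much of both differences: without it they were -0.19 and 0.20, with adjusted p-values of 0.999 in limma for each.

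No family probe passed in total brain, where 0% of all probes passed in each of the 3 comparisons. At an unadjusted p under 0.05, 1 family probe was found at 0.002 mg/kg against vehicle, 0 at 0.2 mg/kg against vehicle and 3 at 0.2 against 0.002 mg/kg, among 1468, 972 and 1321 of the 22523 probes. Besides Igfbp2, the 3 were Igfbp6, with a difference of 0.21 (adjusted p of 0.780 in limma), and Igfbp3, with -0.09 (adjusted p of 0.780 in limma). Their values overlapped between the groups: Igfbp6 had 8.98, 8.82 and 8.89 at 0.2 mg/kg, against 8.59, 8.63 and 8.84 at 0.002 mg/kg, and Igfbp3 had 8.82, 8.84 and 8.90 at 0.2 mg/kg, against 8.93, 9.01 and 8.90 at 0.002 mg/kg. Non-overlapping groups occurred for 1 family probe in each comparison, against 13% of all probes at 0.002 mg/kg against vehicle, 10.1% at 0.2 mg/kg against vehicle and 10.9% at 0.2 against 0.002 mg/kg. Those probes were Igfbp2 in the first and last comparison and the second Igfbp4 probe, by a margin under 0.01, in the other. Igf1r, Igf2r and Igfbp7 differed by -0.03 to 0.10 between the doses.

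**Figure D3:**
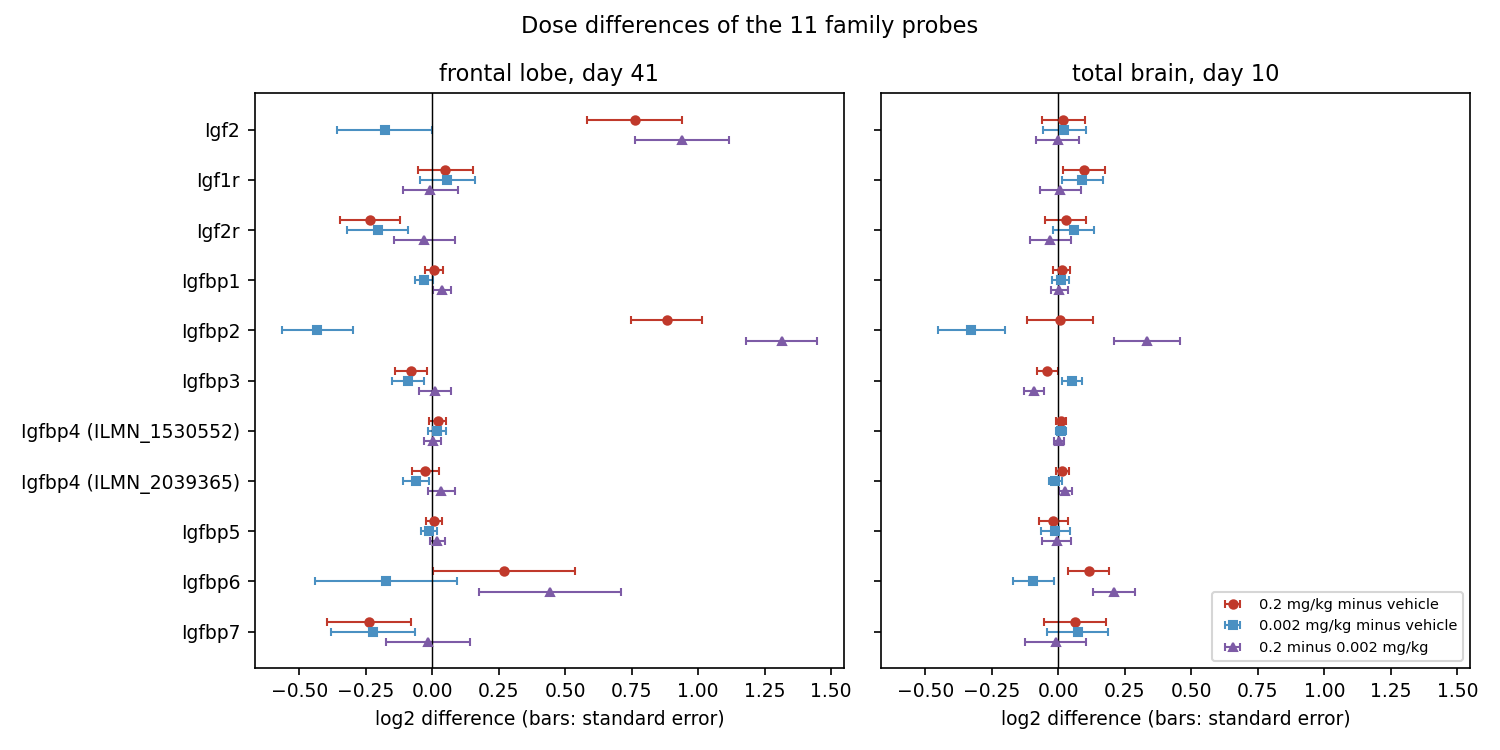
Dose differences (horizontal axis, log2 scale, first dose minus second) of the 11 family probes in frontal lobe (left) and total brain (right), with bars for the standard error of the fit. Igf2 at 0.76 and 0.94 and Igfbp2 at 0.88 and 1.31 stand to the right in frontal lobe, and in total brain Igfbp2 at 0.002 mg/kg lies to the left at -0.33.

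Across the 6 groups, Igf2 was highest in the 3 total brain groups (13.73 to 13.75), followed by the frontal lobe at 0.2 mg/kg (13.62), the frontal lobe with vehicle (12.86) and the frontal lobe at 0.002 mg/kg (12.68). The frontal lobe 0.2 mg/kg arrays overlapped those of total brain, and a gap of 0.76 in the means separated them from the frontal lobe vehicle group. The Igfbp2 order was total brain at 0.2 mg/kg and with vehicle (12.16 each), frontal lobe at 0.2 mg/kg (12.03), total brain at 0.002 mg/kg (11.83), frontal lobe with vehicle (11.15) and frontal lobe at 0.002 mg/kg (10.71). Each of the first 4 groups overlapped its neighbour among them, while the 2 lowest were separated from the groups above and from each other. Between vehicle groups, frontal lobe differed from total brain by -0.87 for Igf2 and by -1.01 for Igfbp2, with no overlap of their arrays. The vehicle arrays of Igfbp1, Igfbp3, Igfbp5, Igfbp6, Igfbp7 and the first Igfbp4 probe did not overlap between the tissues either. Lack of overlap was thus not particular to Igf2 and Igfbp2, and its share over all probes was not computed. These comparisons of level assume that separately normalized tissues share a scale, and the medians of all probes differed by about 0.05.

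Of the genes above the floor, Igfbp3, Igfbp6 and Igfbp7 did not overlap between the tissues. Near the floor, Igfbp5 and the first Igfbp4 probe did not overlap either. They averaged 7.70 and 7.63 in frontal lobe and 7.83 and 7.71 in total brain. The lowest value of any probe was itself 7.45 in frontal lobe and 7.59 in total brain. The part of that offset in these near-floor differences was not tested. The share of all probes without overlap between the tissues was not computed. Igfbp7 averaged 12.91 in the 9 frontal lobe arrays and 12.07 in the 9 total brain arrays, with no overlap. Igfbp6 averaged 9.47 in frontal lobe and 8.79 in total brain, again with no overlap, and Igfbp3 averaged 8.26 in frontal lobe and 8.90 in total brain, with no overlap in the other direction. Igf2r averaged 10.53 in frontal lobe and 10.79 in total brain and Igf1r 8.63 and 8.76, and both overlapped between the tissues. The spread within groups was larger in frontal lobe than in total brain for Igf2, with a pooled SD of 0.25 in frontal lobe and 0.11 in total brain. So it was for Igfbp6 with 0.37 and 0.11, and for Igfbp7 with 0.22 and 0.16. Igf1r had 0.14 and 0.10, Igf2r 0.16 and 0.11 and Igfbp3 0.08 and 0.05, in the same order. For Igfbp2 it was similar at 0.18 and 0.17. Near the floor, Igfbp5 went the other way with 0.03 and 0.07. The spread was thus not particular to Igf2, and that of all probes was not summarized.

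Likeness over the 9 frontal lobe arrays was read among 8206 probes with a single gene symbol in the brighter 50%. Most like Igf2 were Slc22a6 (r = 0.98), Txnip (r = 0.97), Atic (r = 0.96), C1r (r = 0.96) and Fmo1 (r = 0.95). Slc22a6 encodes an organic anion transporter, Txnip a thioredoxin-binding protein, Atic an enzyme of purine synthesis, C1r a complement protease and Fmo1 a flavin monooxygenase. Igfbp2 stood at place 14 (r = 0.94). Those most like Igfbp2 were Asl (r = 0.98), Pola2 (r = 0.98), G6pc3 (r = 0.97), Ier3 (r = 0.97) and Dhrsx (r = 0.97), and Igf2 stood at place 48. In total brain the lists shared no gene with these: Vcan (r = 0.92), Tek (r = 0.90), Mdm1 (r = 0.88), Fabp7 (r = 0.86) and Eif2ak4 (r = 0.86) were most like Igf2, and Fam174c, Polr1c, Creb3, Mpv17l2 (r = 0.99 each) and Suclg1 (r = 0.98) most like Igfbp2. Igf2 and Igfbp2 had r = -0.33 there. These r values are descriptions over 9 arrays that share their dose groups and, within a tissue, their normalization.

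Other parts of the IGF system were read from lists of 17 and 33 measured genes. Of 17 measured genes for other ligands, carriers, proteases and IGF2 mRNA-binding proteins, 0 passed in any comparison, where 2.87% of all probes passed at 0.2 against 0.002 mg/kg, 1.14% at 0.2 mg/kg against vehicle and 0% at 0.002 mg/kg against vehicle in frontal lobe. Of these 17, 10 lay under 8 in frontal lobe and 11 in total brain, among them Ins1, Ins2, Igfals, Pappa and Stc2. Igf1 was not analysed here. Htra1, which encodes a protease that cleaves binding proteins, averaged 12.53 at 0.2 mg/kg and 12.15 with vehicle in frontal lobe, a difference of 0.38 (adjusted p of 0.471 in limma). Igfbpl1, a gene of immature neurons and related in sequence to the binding proteins, had frontal lobe values of 8.37, 8.06 and 8.86 with vehicle, 8.26, 8.96 and 8.39 at 0.002 mg/kg, and 9.01, 9.22 and 8.78 at 0.2 mg/kg. Its groups overlapped. In total brain the Igfbpl1 group means ran from 11.71 to 11.86. Of 33 measured genes of receptor signalling, 11 lay under 8 in both tissues, among them Insr, Irs1 and Irs2. Of the 33, 1 passed, at 0.2 against 0.002 mg/kg in frontal lobe, where 2.87% of all probes passed. It was Pik3r2, a regulatory subunit of PI 3-kinase, which was lower at 0.2 mg/kg. Its values were 9.12, 8.84 and 8.98 at 0.2 mg/kg, against 9.46, 9.39 and 9.44 at 0.002 mg/kg in frontal lobe, a difference of -0.45 (adjusted p of 0.0288 in limma). The number of signalling genes passing in that comparison was 0 or 1 with 1 array left out and 0 to 3 under the other settings, and it was 0 without any 1 of the 0.002 mg/kg arrays, without replicate 2 or 3 at 0.2 mg/kg, or with the replicate number as a block. Akt1, a kinase downstream of the receptor, differed by -0.17 in that comparison (adjusted p of 0.193 in limma). The median difference of the signalling genes was -0.02, with 14 above 0 and 19 below.

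Among 13 measured imprinted genes, 0 passed at 0.2 mg/kg against vehicle in frontal lobe, where 1.14% of all probes passed, and 2 at 0.2 against 0.002 mg/kg, where 2.87% did. Cdkn1c, which encodes an inhibitor of the cell cycle and lies in the imprinted domain next to that of Igf2, rose by 0.20 (adjusted p of 0.0456 in limma), with values of 8.19, 8.14 and 8.06 at 0.2 mg/kg, against 7.97, 7.90 and 7.93 at 0.002 mg/kg, near the floor. Rasgrf1, which encodes an exchange factor for Ras in neurons, had values of 9.85, 9.55 and 10.01 at 0.2 mg/kg, against 10.57, 10.69 and 10.53 at 0.002 mg/kg, and fell by 0.79 (adjusted p of 0.0360 in limma). Dlk1, which encodes a membrane protein of growing tissues, lay under 8 in both tissues. The count of 2 became 0 without any 1 of the 0.002 mg/kg arrays, without replicate 1 or 2 at 0.2 mg/kg or with the replicate number as a block, 3 without replicate 3 at 0.2 mg/kg, and at most 4 under the other settings. At 0.2 mg/kg against vehicle the count was 0 or 1 with 1 array left out, the 1 without vehicle replicate 3, and 0 to 2 otherwise. The median difference over the 13 genes was 0.01 at 0.2 against 0.002 mg/kg. In total brain and at 0.002 mg/kg against vehicle in frontal lobe, 0 genes of these lists passed.

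Markers of the cell types that express Igf2 and Igfbp2 were read from the same arrays, since a change in the cells sampled and a change in RNA per cell cannot be told apart in bulk tissue. The meninges and fibroblast list had 26 measured genes, with Bgn, Cdh1 and Lama1 under 8, against 58.5% of all probes in frontal lobe. Its mean level ranged from 9.23 to 9.55 with vehicle, from 9.25 to 9.36 at 0.002 mg/kg and from 9.48 to 9.84 at 0.2 mg/kg in frontal lobe. At 0.2 mg/kg against vehicle 0 of the 26 passed, 21 had a difference above 0, and the median difference was 0.13. At 0.2 against 0.002 mg/kg 24 of 26 had a difference above 0, with a median of 0.29, and 2 passed, both higher: Slc22a6 by 0.64 (adjusted p of 0.0294 in limma) and Crabp2, a retinoic acid-binding protein of the meninges, by 0.85 (adjusted p of 0.0401 in limma), where 2.87% of all probes passed. That count was 0 without replicate 1 at 0.2 mg/kg or any 1 of the 0.002 mg/kg arrays, 1 without replicate 2 and 5 without replicate 3 at 0.2 mg/kg, and 1 to 7 under the other settings. At 0.2 mg/kg against vehicle the count was 0 or 1 under all settings, and 1 without replicate 3 at 0.2 mg/kg. At 0.002 mg/kg against vehicle 23 of 26 had a difference below 0, with a median of -0.17 and 0 passing. The groups did not overlap at 0.2 mg/kg against vehicle for 6 of the 26 genes, against 17.6% of all probes, among them Ogn with a difference of 0.53 (adjusted p of 0.132 in limma), Crabp2 with 0.53 (adjusted p of 0.172 in limma) and Slc22a6 with 0.47 (adjusted p of 0.0942 in limma). Other genes of the list overlapped: Dcn, a matrix proteoglycan, differed by 0.42 (adjusted p of 0.471 in limma), Slc6a13, a GABA transporter of the meninges, by 0.20 (adjusted p of 0.556 in limma), and Col1a2, a collagen chain, by 0.11 (adjusted p of 0.927 in limma). Aldh1a2, the retinoic acid synthesizing enzyme of the meninges, differed by 0.02 (adjusted p of 0.971 in limma). In total brain the median differences of the list were within -0.00 and 0.02.

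With the average of all 9 frontal lobe arrays set to 0, the meninges list level was 0.09, 0.09 and -0.24 with vehicle, -0.10, -0.21 and -0.15 at 0.002 mg/kg, and 0.14, 0.37 and 0.02 at 0.2 mg/kg. Igf2, Igfbp2 and this list thus all had their highest array in the 0.2 mg/kg group, in replicate 2. Without that array and vehicle replicate 3, Igf2 differed by 0.55 and Igfbp2 by 0.73 between 0.2 mg/kg and vehicle, and by 0.84 and 1.17 between 0.2 and 0.002 mg/kg. The part of the meninges signal in the Igf2 and Igfbp2 differences was not tested.

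Choroid plexus markers gave no common direction. Of 20 measured genes 15 lay under 8 in frontal lobe, among them Clic6, Folr1 and Kcnj13, and the list's mean ranged from 8.08 to 8.25 with vehicle and from 8.13 to 8.14 at 0.2 mg/kg. At 0.2 against 0.002 mg/kg, where 2.87% of all probes passed, Aqp1, a water channel, rose by 0.33 (adjusted p of 0.0483 in limma). Kcnj13, a potassium channel, fell there by 0.28 (adjusted p of 0.0335 in limma). At 0.2 mg/kg against vehicle 0 of the 20 passed, against 1.14% of all probes. The 2 calls were 0 without any 1 of the 0.002 mg/kg arrays, without replicate 1 or 2 at 0.2 mg/kg or with the replicate number as a block, and up to 3 under the other settings. Ttr, the defining choroid plexus transcript, had 10.71 in vehicle replicate 1 and 8.17 and 7.92 in the other vehicle arrays, and 7.81 to 8.56 in the exposed frontal lobe arrays. Igf2 was highest of the vehicle arrays in that replicate, at 13.17, and without it the Igf2 difference between 0.2 mg/kg and vehicle was 0.92. In the fit of all 9 arrays, genes of neurons were lower where they passed. Of 15, 1 fell at 0.2 mg/kg against vehicle, where 1.14% of all probes passed. At 0.2 against 0.002 mg/kg, where 2.87% of all probes passed, 6 fell. They were led by Slc17a7, the vesicular glutamate transporter of cortical neurons. Slc17a7 had 9.68, 9.50 and 9.89 at 0.2 mg/kg, against 10.49, 10.53 and 10.39 with vehicle, a difference of -0.78 (adjusted p of 0.0179 in limma). Nefl, a neurofilament subunit, fell by 0.62, and of the synaptic vesicle genes Syn1 fell by 0.52 and Syt1 fell by 0.67 at 0.2 against 0.002 mg/kg (adjusted p of 0.0180, 0.0223 and 0.0392 in limma). The 6 neuronal calls were 0 without replicate 1 and 1 without replicate 2 or 3 at 0.002 mg/kg, 4 or 5 without 1 array at 0.2 mg/kg, 1 with the replicate number as a block and 4 to 8 under the other settings. The call against vehicle was lost without replicate 1 at 0.2 mg/kg, without vehicle replicate 1 or 2, with the block or with only the 6 arrays compared, and numbered 3 without vehicle replicate 3. The repeats for the choroid plexus and neuron lists were added after the data were seen. The neuronal list's level ranged from 11.14 to 11.37 at 0.2 mg/kg, against 11.54 to 11.62 with vehicle, without overlap. Its median difference at 0.2 mg/kg against vehicle was -0.33, with 12 of 15 genes below 0. The groups did not overlap for 10 of the 15, against 17.6% of all probes. Of the 15, 1 lay under 8 in frontal lobe, against 58.5% of all probes, so the shares of all probes are not a like background. The list was also chosen with earlier results of these data known. The microglia list ranged from 9.68 to 10.13 at 0.2 mg/kg, against 9.51 to 9.69 with vehicle, with replicate 2 highest, and 0 of its 13 genes passed. Its median difference at 0.2 mg/kg against vehicle was 0.36, with 12 of 13 genes above 0. The red blood cell list had a median difference of 0.22 at 0.2 mg/kg against vehicle, with 8 of 8 genes above 0 and 0 passing. The endothelial and mural list had a median of -0.06, the astrocyte list 0.01 and the oligodendrocyte list 0.15, with 0 passing in each. The part of these lists in the Igf2 and Igfbp2 differences was not tested.

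**Figure D4:**
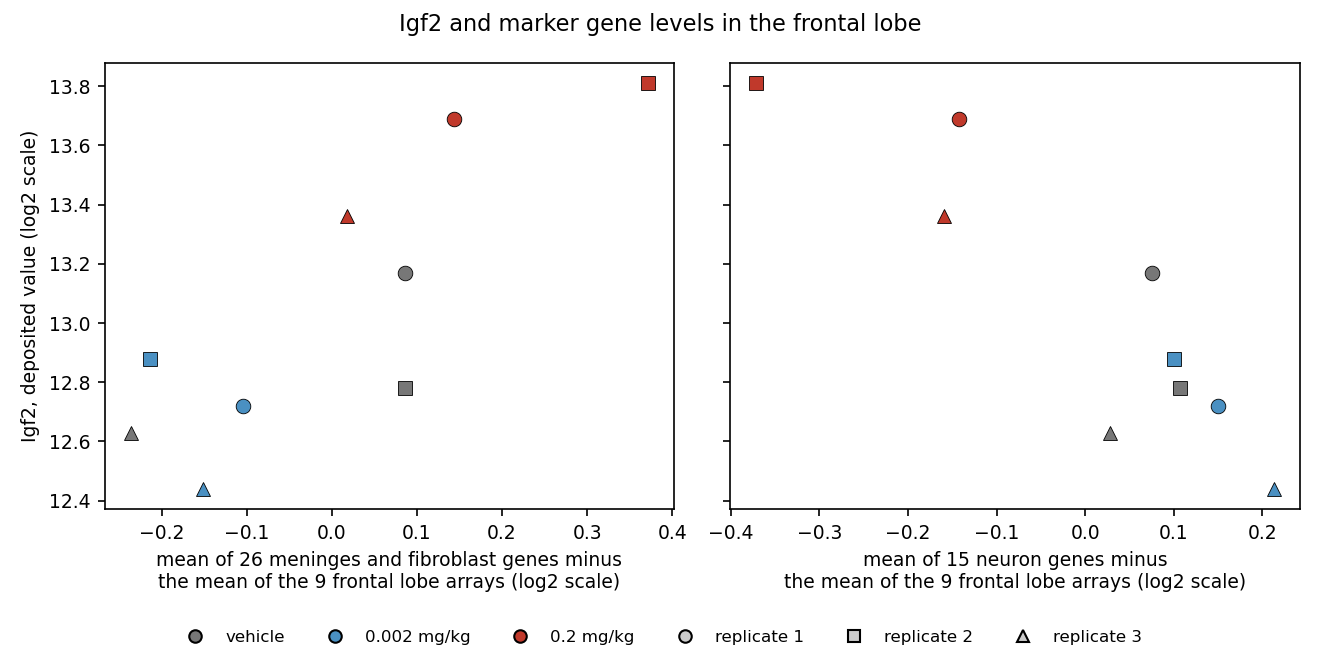
Igf2 on each frontal lobe array (vertical axis, log2 scale) against the mean level of the 26 meninges and fibroblast genes (left) and the 15 neuron genes (right), each minus the mean of the 9 arrays; colour gives the dose and shape the replicate. The 0.2 mg/kg arrays have the highest Igf2 values and the lowest neuron levels, and the meninges levels of the 0.2 mg/kg arrays run from 0.02 to 0.37 and those of the vehicle arrays from -0.24 to 0.09.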

How the data were processed

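RNA of 18 pups was labelled and hybridized to Illumina rat bead arrays, 1 array per pup and 3 per group, per the labels. What the authors deposited is a table of normalized values that look like log2 signal. The submitters' processing notes name lumi. Its version and its background, transformation and normalization steps, and any filter, were not given in the sources used here. A variance-stabilizing transformation would compress differences near the floor. There is no detection p, so signal over background is judged from the floor alone, and the number of arrays limits precision. The table was used as it stands.

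Of the 22523 probes, 13793 were annotated with a single symbol (13337 genes) and 8730 with none. Columns were matched to samples by sample identifier, and groups and replicate numbers were read from the titles. For each tissue, limma 3.58.1 (R 4.3.3) was run on the 9 arrays of that tissue alone with default eBayes, and the contrasts between doses were taken from that fit. A probe passed if its p, adjusted by Benjamini and Hochberg's method over the 22523 probes, was under 0.05. The fit was tested on simulated data with known changes. The labels name separate litters and no batch. Figures were drawn with Python 3.11.15.

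Members and gene lists were chosen with earlier results of these data known. The text names every family probe, the 5 genes most like Igf2 and Igfbp2 in each tissue (Pearson's r over 9 arrays, brighter 50% of probes), list genes that passed, up to 4 per list, and a few genes of the IGF system and of tissue markers. Igfbpl1, Htra1, Akt1 and Ogn, and the list genes named as lying near the floor, were named after their values were seen. In lists, a gene with several probes was represented by its brightest. Promoters came from RefSeq (GRCr8), matched by symbol. Alternatives covered normalization, a filter on dim probes, the variance model, weighting of arrays, a block for the replicate number, the arrays fitted, the threshold and each array left out.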

Additional observations from a re-analysis of the deposited data

Results flagged for a closer look

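Igfbp3 at 0.002 mg/kg and Igfbp7 at 0.2 mg/kg had differences from vehicle of opposite sign in the tissues. Igfbp3 at 0.002 mg/kg had a difference of -0.0894 in frontal lobe and 0.0508 in total brain. Igfbp7 at 0.2 mg/kg had a difference of -0.237 in frontal lobe and 0.0622 in total brain. In each case every exposed array lay below the vehicle mean in frontal lobe and above it in total brain. In total brain the margin was narrow. The lowest Igfbp3 array at 0.002 mg/kg was 8.8956, against a vehicle mean of 8.8937. The lowest Igfbp7 array at 0.2 mg/kg was 12.0239, against 12.0218. Standard errors of these total brain differences were 0.038 for Igfbp3 and 0.115 for Igfbp7. Exposed and vehicle arrays overlapped for both genes in both tissues. The share of all probes with such a pattern was not computed, and the difference between the tissues was not tested. Nothing is read from the opposite signs.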

How the results depend on the processing

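The frontal lobe differences of Igf2 and Igfbp2 kept their direction under every alternative run. Both genes were chosen on these contrasts, and their 0.2 mg/kg arrays overlapped no other frontal lobe group. Leaving arrays out therefore could not reverse their differences from that group, and the kept direction is not read as support. Between 0.2 mg/kg and vehicle, Igf2 ranged from 0.65 to 0.92 and Igfbp2 from 0.74 to 1.01 with 1 array left out, and from 0.55 to 0.76 and from 0.73 to 0.88 under the other alternatives. The number of family probes that passed did depend on the processing. At 0.2 mg/kg against vehicle it was 1 (Igfbp2), and it was 2 (Igf2 and Igfbp2) with the brighter 50% of probes, with eBayes' trend and robust options, with all 18 arrays in the fit and with an adjusted p under 0.1. It was 0 with only the 6 arrays compared, where 5 of all probes passed, and 0 to 1 with 1 array left out. The 0 arose without replicate 1 at 0.2 mg/kg or vehicle replicate 1 or 2, when 44, 51 and 27 of all probes passed in place of 257. With replicate 2 at 0.2 mg/kg and vehicle replicate 3 both left out, chosen after seeing the data, it was 2 (Igfbp2 and Igf2r), and 727 probes passed in all. At 0.2 against 0.002 mg/kg it was 2, and 1 (Igfbp2) with both of those arrays left out, with 0 to 2 when 1 array was left out. The 0 arose without replicate 2 at 0.002 mg/kg. Igf2 alone was lost without replicate 1 or 2 at 0.2 mg/kg or replicate 1 or 3 at 0.002 mg/kg. With the replicate number as a block, 0 family probes passed at 0.2 mg/kg against vehicle (43 probes in all) and 1 at 0.2 against 0.002 mg/kg (65 in all, against 646). Nothing in the labels pairs the replicate numbers, and deviations of same-numbered arrays correlated at -0.25 to 0.11 in frontal lobe and -0.29 to 0.44 in total brain. In total brain and at 0.002 mg/kg against vehicle in frontal lobe, 0 family probes passed under every alternative run. The all-probe counts at 0.2 mg/kg against vehicle were 559, 487, 633 and 811 for the 4 alternatives that gave 2, in the order named. Quantile normalization and median centring moved the median of all probes by under 0.01 and no family count. Causes were not tested.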
